A study of Mus musculus with 4 samples.

Results

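The genes described here are 32 genes of the endoplasmic reticulum (ER) and its stress response, measured in mouse embryonic fibroblasts (MEFs) exposed to genistein. They were chosen by symbol: the sensors of the unfolded protein response, the folding enzymes and chaperones that ATF6 and XBP1 are known to control, and the genes of ER-associated degradation (ERAD), with a pair of translocon subunits. All 32 symbols were found among the 47937 gene entries of the count table. Of these, 31 had enough reads to be tested, among 16240 genes tested in all, and the other, Derl3, had 0, 0, 0 and 1 reads in the 4 libraries.

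The study asked how genistein, a plant isoflavone, affects transcripts of the mouse genome, with its interest in satellite repeats. Total RNA was sequenced from 2 untreated MEF libraries, labelled wild-type, and 2 libraries of MEFs given 50 µM genistein for 24 h. The genotype field of the genistein libraries reads "Genistein treated" and names no genotype, and the cell line is given only as MEF. Elsewhere in its methods the study uses "untreated" for cells given the solvent DMSO alone, and whether these controls had DMSO is not stated. Nothing says that the libraries of a group came from separate cultures, so the p-values given here measure the spread between these libraries. The 4 libraries held 28591958 to 31464284 reads assigned to genes or repeats, of which repeats took 12% to 14.6%. In whole-culture RNA, fewer cells of a type and less RNA per cell cannot be told apart.

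Of 10 fibroblast markers, 8 were well above the count filter, Thy1 had 0 reads in every library and Lum had 10 reads or fewer. The fibroblast markers summed to 1940 to 1980 RPKM (reads per kilobase of exon, scaled to library size) in the untreated and to 1740 to 1780 RPKM in the genistein libraries. Of the 8 tested, 7 fell and 1 rose (edgeR adjusted p under 0.05), where 38.2% of all genes tested fell and 33.5% rose. On the log2 scale the falls ran from 0.16 (Pdgfra) to 0.73 (Pdgfrb), and Fn1 rose by 0.20. Some markers of leukocytes, epithelium and endothelium moved with the treatment at low levels. The 4 leukocyte markers summed to 2.48 to 2.96 RPKM untreated and to 7.55 to 7.72 RPKM with genistein, through Cd68 and Csf1r, while Adgre1 was at 0 in all libraries and Ptprc at 0 or 1 reads. The 4 epithelial markers summed to 7.94 to 8.11 RPKM untreated and to 2.18 to 2.35 RPKM with genistein, through Krt8 and Krt18, while Epcam was at 0 in all libraries. The 3 endothelial markers stayed at or under 0.326 RPKM, with 73 and 74 Kdr reads in the genistein libraries against 16 and 19. The 3 plasma cell or secretory markers summed to 48.4 to 52.1 RPKM untreated and to 54.4 to 56.8 RPKM with genistein, nearly all from Sdc1. The 3 pluripotency markers summed to 0.845 RPKM or less. Whether these marker reads came from other cells or from the fibroblasts was not tested, nor was any part of theirs in the results below.

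The ER folds membrane and secreted proteins. When unfolded proteins build up in it, the chaperone BiP leaves the sensors IRE1, PERK and ATF6: IRE1 splices the Xbp1 messenger into one that encodes a transcription factor, ATF6 is cut to release another, and PERK phosphorylates eIF2α, which slows translation and favours the translation of ATF4. XBP1 and ATF6 raise transcription of chaperones, oxidoreductases and ERAD genes, whose products refold proteins or pull them back into the cytosol for the proteasome. Fibroblasts make large amounts of collagen and other matrix proteins in the ER. Counts per gene measure transcript levels and show neither the splicing of Xbp1 nor the cleavage or phosphorylation of the sensor proteins.

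The DNA letters best known for this control are the ER stress response element, CCAAT and CCACG 9 bases apart, and its short form (element II), ATTGG and CCACG 1 base apart. RefSeq promoter windows, 250 bases before to 50 after a transcription start on GRCm38.p6, were given for 26 of the 32 genes. An element of either form was found in them, on either strand, for 11 of the 26 genes (42.3%). These elements are printed 5′ to 3′ along the strand of the element, with the fixed letters in capitals. The first 10 are the element and the last 2 the short form.
Hspa5: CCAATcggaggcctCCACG
Dnajc3: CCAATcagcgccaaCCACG
Creld2: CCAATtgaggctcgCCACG
Hsp90b1 upstream element: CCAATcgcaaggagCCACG
Hsp90b1 downstream element: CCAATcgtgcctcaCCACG
Calr: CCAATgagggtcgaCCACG
Canx: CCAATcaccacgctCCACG
Pdia6: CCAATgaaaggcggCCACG
Syvn1: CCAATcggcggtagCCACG
Derl3: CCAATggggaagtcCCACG
Dnajb11: ATTGGcCCACG
Herpud1: ATTGGgCCACG

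These lie upstream of the start, except in Dnajb11, where the short form begins 7 bases after it. They were at chr2:34772025-34772043 for Hspa5, chr14:118937827-118937845 for Dnajc3, chr15:88819520-88819538 for Creld2, chr10:86705638-86705656 and chr10:86705533-86705551 for Hsp90b1, chr8:84847075-84847093 for Calr, chr11:50325800-50325818 for Canx, chr12:17266491-17266509 for Pdia6, chr19:6046532-6046550 for Syvn1, chr10:75893242-75893260 for Derl3, chr16:22857852-22857862 for Dnajb11 and chr8:94386377-94386387 for Herpud1. The ER stress response element was in the windows of 9 of the 26 genes (34.6%), against 37 of all 27025 genes with a RefSeq window (0.137%). The short form was in 2 of the 26 genes (7.69%), against 12 of all these genes (0.0444%). The folding enzymes and chaperones were chosen as known targets of ATF6 and XBP1, so these shares were set in part by the choice. The ATF6 site TGACGTGG was in none of the 26 genes and in 0.714% of all genes with a window. A C/EBP-ATF site, TTGCATCA, was in Herpud1 alone among the 26 genes, beginning at position -112 from its start, and in 1.03% of all genes with a window. Only exact letters were counted, none of these matches overlapped another in these genes, and a match in a window is a description of the letters there.

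The windows of Hspa5, which encodes BiP, and of Herpud1, a membrane protein of the ERAD complex, are shown whole, since their transcripts moved in opposite directions. Both are read along the plus strand, and the capitals mark the letters of the elements, with the C/EBP-ATF site of Herpud1 also in capitals.
Hspa5, chr2:34771840-34772139: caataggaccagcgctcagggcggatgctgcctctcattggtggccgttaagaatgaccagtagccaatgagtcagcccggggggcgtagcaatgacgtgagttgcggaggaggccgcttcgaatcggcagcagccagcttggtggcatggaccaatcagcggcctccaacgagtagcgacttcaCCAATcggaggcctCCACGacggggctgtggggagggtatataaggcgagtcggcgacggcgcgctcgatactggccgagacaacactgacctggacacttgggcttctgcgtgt
Herpud1, chr8:94386179-94386478: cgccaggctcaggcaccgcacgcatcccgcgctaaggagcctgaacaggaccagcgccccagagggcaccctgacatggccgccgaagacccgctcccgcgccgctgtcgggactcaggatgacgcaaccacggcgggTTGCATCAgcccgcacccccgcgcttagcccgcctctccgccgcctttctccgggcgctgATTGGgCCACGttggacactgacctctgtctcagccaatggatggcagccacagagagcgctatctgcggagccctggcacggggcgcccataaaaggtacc

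Per length of exon, the folding enzymes of the ER lumen were the most abundant of the 32 transcripts and the sensors and several ERAD genes among the least abundant. In untreated cells the order of mean levels was P4hb (391.9 RPKM), Hsp90b1 (327.8), Calr (311.1), Hspa5 (234.4), Canx (197.3), Pdia3 (152.5) and Pdia4 (92.24), and none of these 7 overlapped its neighbour across the 2 libraries. At the other end were Ern1 (6.81 RPKM), Derl2 (6.54), Eif2ak3 (5.22), Syvn1 (4.27) and Dnajb9 (3.69), above Derl3 at 0. Neighbours whose ranges overlapped in the untreated libraries were Sec61a1 with Pdia6, Xbp1 with Manf, Manf with Dnajb11, Dnajc3 with Hyou1, Hyou1 with Os9, Sdf2l1 with Herpud1, and Atf6b with Atf6. With genistein, Hspa5 (167.9 to 172.9 RPKM) came after Canx and overlapped Pdia3 (172 to 172.3 RPKM). Os9 moved from rank 19 to rank 13 and Creld2 from rank 13 to rank 18. The 32 genes together took 0.944% and 0.925% of the gene reads untreated and 0.864% and 0.881% with genistein.

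**Figure D1:**
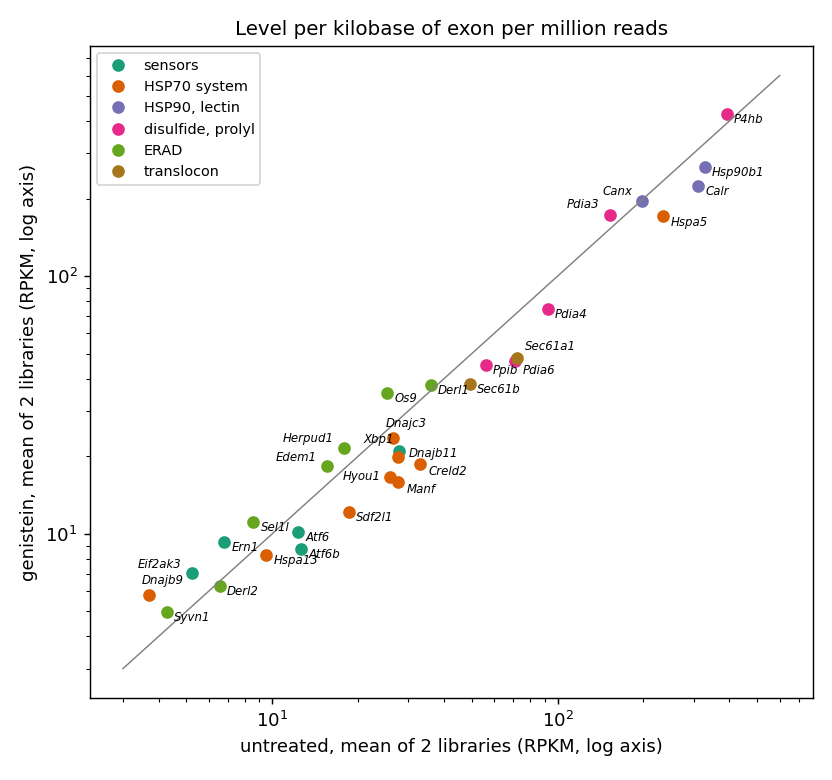
Mean level of each gene in RPKM (reads per kilobase of exon, scaled to library size; both axes logarithmic) in the 2 untreated libraries (x) and the 2 genistein libraries (y), coloured by role, with the line of equal levels; Derl3 is left out, having 1 read in all. P4hb was at the top in both groups (391.9 and 425.4 RPKM), Hspa5 and Calr lay below the line, and Os9, Dnajb9 and Ern1 lay above it.

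After 24 h of genistein, 10 of the 31 genes tested rose and 18 fell, at an adjusted p under 0.05. Over all genes tested, 33.5% rose and 38.2% fell, so the share of these genes that rose (32.3%) was near the background and the share that fell (58.1%) was above it. By role, 8 of 9 genes of the HSP70 system and both translocon subunits fell, 5 of 7 ERAD genes tested rose and none fell, and the sensors and the isomerases each had 2 genes higher and 3 lower. A difference in direction between roles was not tested. The changes were moderate, from -0.82 (Creld2) to 0.65 (Dnajb9) on the log2 scale, with a median of -0.29 against -0.03 for all genes tested. The study's methods also asked for a log2 fold change past 1 in size and for a mean of more than 100 normalised counts. These combined thresholds, which 3.92% of genes passed upwards and 4.16% downwards, were passed by 0 of the 31 genes in edgeR or in DESeq2, and the number is also 0 at an unadjusted p under 0.05, since no change reached 1. Both genistein libraries lay above both untreated libraries for 11 genes and below them for 19, where 40.7% of all genes tested lay above and 44.6% below.

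**Figure D2:**
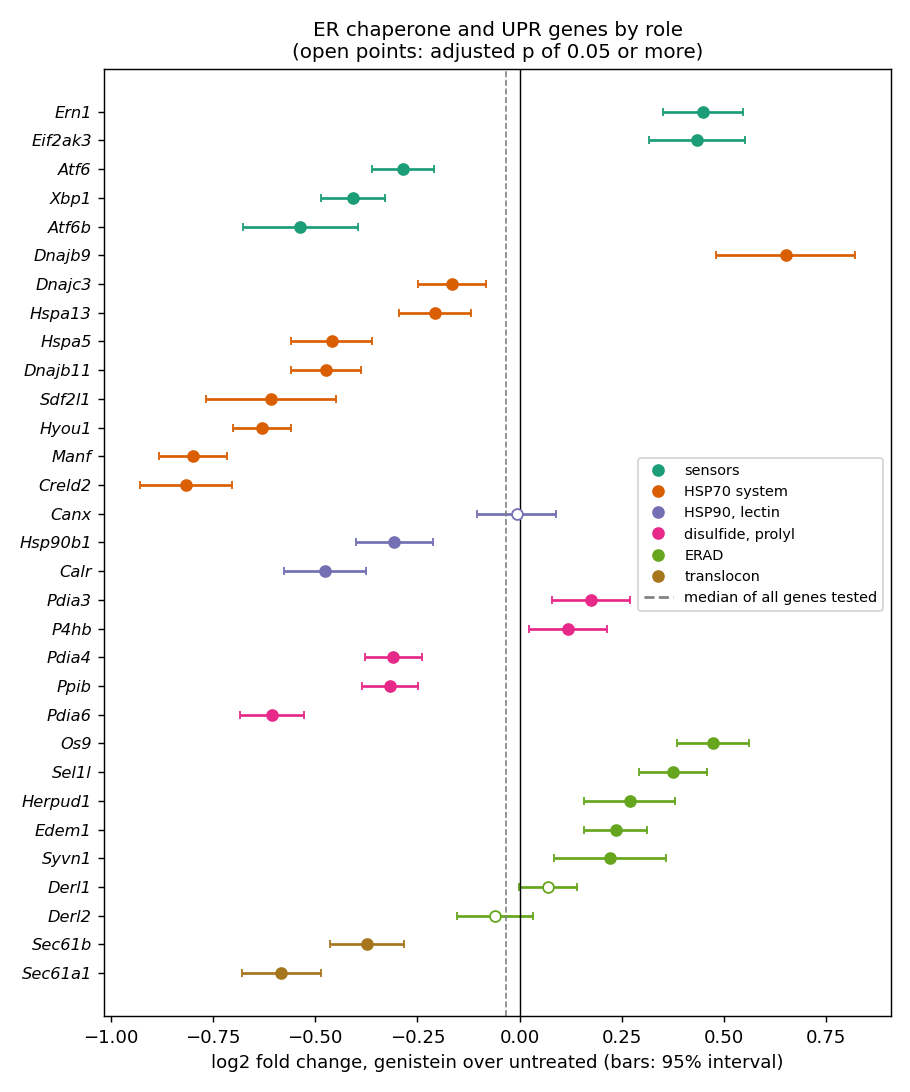
Log2 fold change (genistein over untreated) of the 31 genes tested, by role, with 95% intervals from edgeR; filled points have an adjusted p under 0.05 and the dashed line is the median of all genes tested (-0.03). The HSP70 system lies to the left except Dnajb9 at 0.65, and the ERAD genes lie to the right except Derl2 at -0.06.

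The sensors and their transcription factors split. Ern1, which encodes the kinase and endoribonuclease IRE1α, had 1686 and 1641 normalised counts untreated and 2371 and 2171 with genistein. The groups did not overlap, and Ern1 rose by 0.45 on the log2 scale (SE 0.05, n = 2 per group, edgeR adjusted p = 2.1e-07). Eif2ak3, which encodes PERK, had normalised counts of 900.1 and 983 untreated and 1287 and 1253 with genistein. It also rose in both genistein libraries, by 0.43 (SE 0.06, adjusted p = 2.8e-06). About 8.05% of the exon length of Eif2ak3 overlaps an unstudied gene model on the other strand, Gm43292, and the strand setting of the counting is not stated.

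The transcription factor genes of the IRE1 and ATF6 arms fell. Xbp1, the messenger that IRE1 splices, had normalised counts of 2719 and 2705 untreated and 2056 and 2033 with genistein. This was a fall to 0.754 of the untreated level (log2 fold change -0.41, SE 0.04, adjusted p = 4.9e-08). Atf6, the membrane-bound factor that is cut on stress, had normalised counts of 3373 and 3448 untreated and 2756 and 2838 with genistein. It fell by 0.29 (SE 0.04, adjusted p = 2.1e-06). Its paralogue Atf6b had 1114 and 971.9 untreated and 723.9 and 715.6 with genistein, and fell by 0.54 (SE 0.07, adjusted p = 1.9e-06). For all 3 genes both genistein libraries lay below both untreated libraries.

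The HSP70 system, made up of BiP, its relatives, its J-domain partners and its cofactors, fell together: 8 of 9 genes were lower, with a median log2 fold change of -0.47. Summed over the 9 genes, normalised counts were 49894 and 48249 untreated and 35124 and 36263 with genistein. Hspa5 had normalised counts of 30230.3 and 29062 untreated and 21242 and 21879 with genistein, so that every genistein library was below every untreated one. It fell to 0.727 of the untreated level (log2 fold change -0.46, SE 0.05, adjusted p = 1.9e-07), and made up most of the sum.

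Creld2 and Manf, ER proteins of which Manf is known to bind BiP, changed most in this role. Creld2 had normalised counts of 1320 and 1372 untreated and 767.0 and 762.2 with genistein. Its log2 fold change of -0.82 (SE 0.05, adjusted p = 7.6e-10) was the lowest of the 31 genes. Manf had normalised counts of 2949.9 and 2873 untreated and 1649 and 1703 with genistein. It fell by 0.80 (SE 0.04, adjusted p = 2.3e-11), to 0.575 of the untreated level. Of the Manf exon length, 4.71% overlaps the antisense gene 4930524O07Rik and 4.14% overlaps Dcaf1, also on the other strand. Among all genes tested, 10.5% had a lower log2 fold change than Creld2 and 11% a lower one than Manf.

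The rest of the role fell by less, with 1 exception. Hyou1, a large HSP70 relative that exchanges the nucleotide of BiP, fell by 0.63. Sdf2l1, which works with the J-domain protein ERdj3, fell by 0.61. Dnajb11, which encodes ERdj3, fell by 0.47. Hspa13, another HSP70 relative of the ER, fell by 0.21. Dnajc3, the J-domain protein P58IPK, had the smallest fall, 0.17, and this was no longer called (log2 fold change -0.10, adjusted p = 0.063) when libraries were scaled by their totals alone.

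Dnajb9, which encodes the J-domain protein ERdj4, went the other way and is given in full for that reason, chosen after its values were seen. Its normalised counts were 288.7 and 274.2 untreated and 435.1 and 449.4 with genistein. It rose to 1.57 times the untreated level (log2 fold change 0.65, SE 0.08, adjusted p = 1.7e-06), and 82% of genes tested had a lower log2 fold change. It was also the least abundant of the 9 genes per length, at 3.69 RPKM untreated and 5.80 RPKM with genistein.

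**Figure D3:**
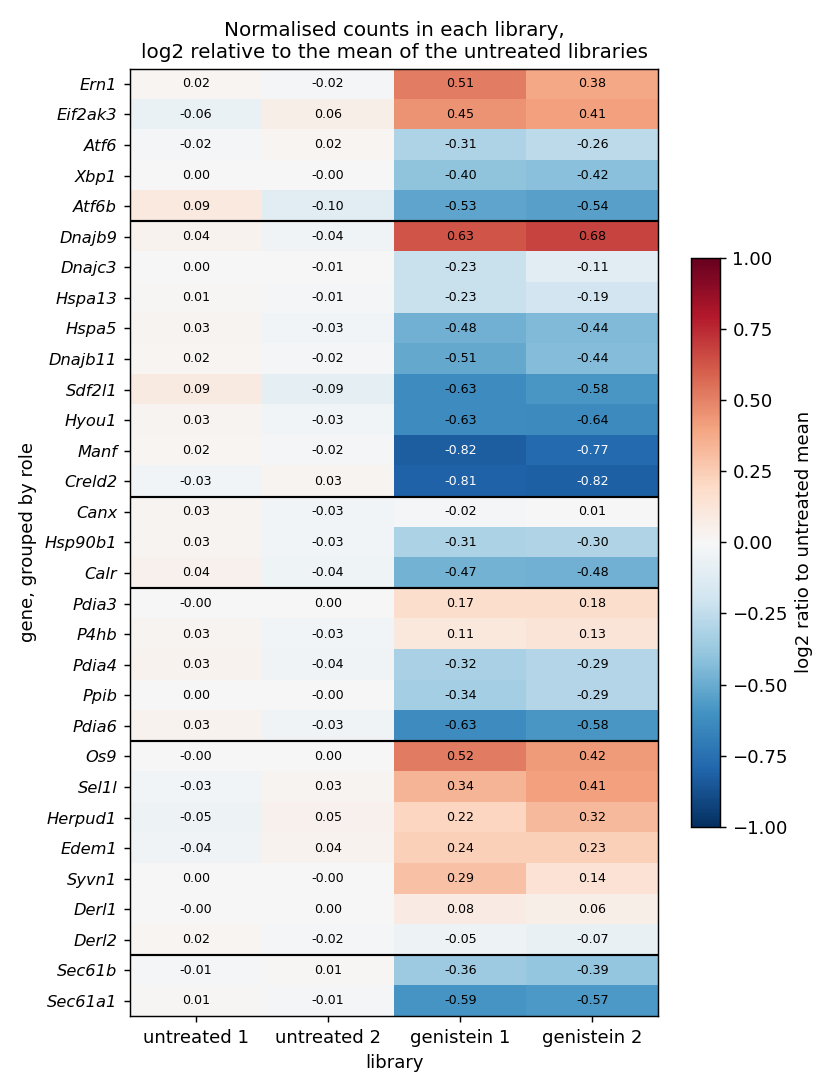
Normalised counts of the 31 genes tested in each of the 4 libraries (columns), as the log2 ratio to the mean of the untreated libraries, with genes in rows grouped by role; red is higher and blue lower. The 2 genistein columns had the same sign in every row except Canx.

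Of the HSP90 and lectin chaperones, 2 of 3 fell. Calr, the soluble lectin calreticulin, had normalised counts of 27555 and 26045 untreated and 19297 and 19249.9 with genistein. The groups were well apart, and Calr fell to 0.719 of the untreated level (log2 fold change -0.48, SE 0.05, adjusted p = 1.5e-07). Hsp90b1, the HSP90 protein of the ER known as GRP94, had 40237 and 38829.7 untreated and 31806 and 32146 with genistein. It fell by 0.31 (SE 0.04, adjusted p = 1.2e-05), and 10.3% of its exon length overlaps the antisense pseudogene 1810014B01Rik. Canx, the membrane lectin calnexin, had 28209.5 and 27181 untreated and 27274 and 27838 with genistein. It was the only gene of the 31 whose groups overlapped (log2 fold change -0.01, 95% interval -0.10 to 0.09, adjusted p = 0.89), and its sign depended on the scaling.

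The disulfide isomerases moved in both directions. Pdia6, which encodes the isomerase P5, had normalised counts of 8152 and 7774 untreated and 5146 and 5328 with genistein. It fell by 0.60 (SE 0.04, adjusted p = 3.4e-10). Ppib, the prolyl isomerase cyclophilin B, had 5562 and 5531 untreated and 4372 and 4533 with genistein. It fell by 0.32 (SE 0.03, adjusted p = 1.9e-07), but 25.0% of its exon length overlaps Snx22 on the other strand, so part of its count may belong to that gene. Pdia4, the isomerase ERp72, fell by 0.31 (SE 0.03, adjusted p = 3.2e-07).

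Pdia3, the isomerase ERp57 that works with calnexin and calreticulin, rose from 14287 and 14360.1 to 16152 and 16176 normalised counts, by 0.17 (SE 0.05, adjusted p = 0.0026). P4hb, which encodes protein disulfide isomerase and the β subunit of collagen prolyl 4-hydroxylase, had 34137 and 32937 untreated and 36084 and 36723 with genistein. Its rise of 0.12 (SE 0.04, adjusted p = 0.026) was the smallest called. It was no longer called without the second untreated library (0.09, adjusted p = 0.15) or without the second genistein library (0.11, adjusted p = 0.069). Summed over the 5 genes of this role, normalised counts were 68917 and 67061 untreated and 67041 and 68163 with genistein, and so overlapped between the groups.

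ERAD was the only one of the 6 roles in which more genes rose than fell, with a median log2 fold change of 0.24 over the 7 genes tested. Os9, a lectin that hands misfolded glycoproteins to the ubiquitin ligase complex, had normalised counts of 1983 and 1995 untreated and 2853 and 2667 with genistein. It rose by 0.47 (SE 0.04, adjusted p = 2.8e-08). Sel1l, the adaptor of that complex, had 2156 and 2236 untreated and 2785 and 2912 with genistein. It rose by 0.38 (SE 0.04, adjusted p = 2.7e-07), and for both genes every genistein library was above every untreated one.

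Herpud1, which gathers the ligase complex, rose by 0.27 (SE 0.05, adjusted p = 0.00023). Edem1, which helps to mark glycoproteins for disposal, rose by 0.24 (SE 0.04, adjusted p = 2.2e-05). Syvn1, the ubiquitin ligase HRD1 itself, had 622.3 and 618.3 normalised counts untreated and 760.5 and 684.2 with genistein. Its rise of 0.22 (SE 0.06, adjusted p = 0.0061) was no longer called without the first genistein library (0.15, adjusted p = 0.070) or with DESeq2 (0.21, adjusted p = 0.076). The derlins, membrane proteins of the exit channel, were not called: Derl1 had a log2 fold change of 0.07 (95% interval -0.0016 to 0.14, adjusted p = 0.073) and Derl2 one of -0.06 (95% interval -0.15 to 0.03, adjusted p = 0.23). Derl1 was called higher when libraries were scaled by totals (0.14, adjusted p = 0.0031), when the scaling came from genes alone (0.11, adjusted p = 0.0062) and when genes alone were fitted (0.11, adjusted p = 0.0042). Derl3, with 1 read in all libraries, allows no comparison.

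Both subunits of the translocon, the channel through which new proteins enter the ER, fell. Sec61a1, the channel itself, had normalised counts of 14696 and 14425 untreated and 9658 and 9792 with genistein. It fell to 0.668 of the untreated level (log2 fold change -0.58, SE 0.04, adjusted p = 6.5e-09), and 8.16% of its exon length overlaps the antisense gene Gm44170. Sec61b, a small subunit, had 1858 and 1894 untreated and 1460.0 and 1435 with genistein. It fell by 0.37 (SE 0.04, adjusted p = 7.5e-07). The groups did not overlap for either gene.

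Ratios of raw counts within a library need no scaling between libraries. Each pair was chosen after the values were seen, with a gene or group that rose or was not called over one that fell, so the choice fixed the direction of every ratio and only their sizes are described. The summed ERAD reads were 0.282 and 0.297 of the summed HSP70 system reads without genistein and 0.475 and 0.457 with it, a mean 1.61 times higher. Ern1 reads were 0.0558 and 0.0565 of Hspa5 reads untreated and 0.112 and 0.0992 with genistein. Ern1 also went from 0.620 and 0.607 of the Xbp1 reads to 1.15 and 1.07.

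Within the J-domain partners, the ratio of Dnajb9 to Dnajb11 went from 0.107 and 0.104 to 0.232 and 0.228, a mean 2.18 times higher and the most of the 10 ratios computed. Within the lectins, Canx over Calr went from 1.02 and 1.04 to 1.41 and 1.45. Within the isomerases, P4hb over Pdia6 went from 4.19 and 4.24 to 7.01 and 6.89, and Pdia3 over Pdia4 from 2.11 and 2.22 to 3.06 and 2.99. Sel1l over Sec61a1 was 1.94 times, Herpud1 over Hspa5 1.66 times and Eif2ak3 over Atf6 1.65 times the untreated mean.

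**Figure D4:**
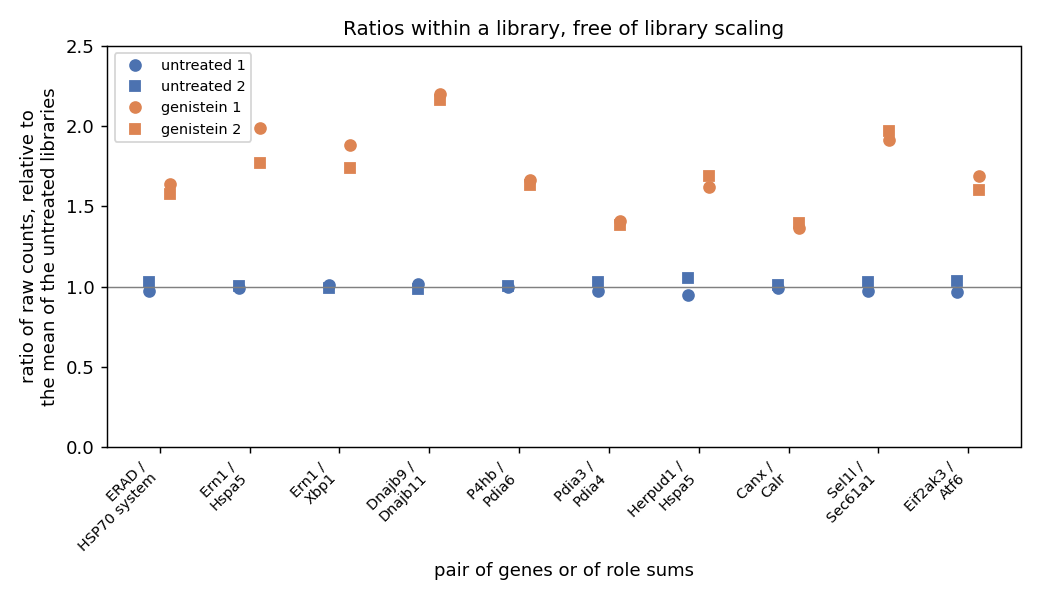
Ratios of raw counts within each library for 9 gene pairs and for the summed ERAD over the summed HSP70 system genes, each divided by its mean in the 2 untreated libraries (y axis, no unit; x axis, the pair). Points are single libraries; the pairs were chosen for this direction, and the genistein means were from 1.38 times (Canx over Calr) to 2.18 times (Dnajb9 over Dnajb11) the untreated mean.

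The genes whose window held the ER stress response element did not all move alike. Of these 9 genes, 6 fell: Calr, Creld2, Dnajc3, Hsp90b1, Hspa5 and Pdia6. Syvn1 rose, Canx was not called and Derl3 was not tested. The rise of Syvn1 was not called with DESeq2 (0.21, adjusted p = 0.076). For comparison, 58.1% of the 31 genes, which include the 6 above, and 38.2% of all genes tested fell. These shares leave out genes not tested, such as Derl3. Of the 2 genes with the short form, Dnajb11 fell and Herpud1 rose. Among genes outside the 32 whose window held the element, 8 were tested, of which 1 rose and 1 fell. For the short form, 7 genes outside the 32 were tested, of which 2 rose and 5 fell. The 6 genes without a window were Atf6, Derl1, Hspa13, Hyou1, Manf and Sec61a1.

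Neighbouring pathways of the ER, from lists of other genes, are given as counts against the same background. For every list below, that background is 33.5% of all genes tested higher and 38.2% lower. The study's thresholds were passed by 3.92% of all genes upwards and 4.16% downwards. The PERK and ATF4 arm had the highest median: 13 of its 20 genes rose and 6 fell, with a median log2 fold change of 0.68, and 8 of the rises passed the study's thresholds. Ddit3, which encodes the transcription factor CHOP, had normalised counts of 494.5 and 485.9 untreated and 2118 and 2126 with genistein. It rose by 2.11 (SE 0.05, adjusted p = 5.2e-15), and Sesn2, a stress-induced inhibitor of growth signalling, rose by 2.09. Atf4 itself fell slightly, by 0.11 (adjusted p = 0.010), and the serine and one-carbon enzymes Shmt2 and Phgdh, which ATF4 is known to activate, fell by 0.72 and 0.51. Many genes of this list also answer to stresses outside the ER.

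Of 11 other regulators of the response, 5 rose and 3 fell, with a median of 0.06. Wfs1, an ER membrane protein named for Wolfram syndrome, had normalised counts of 467.5 and 472.2 untreated and 1208 and 1066 with genistein. It rose by 1.28 (SE 0.07, adjusted p = 7.6e-11) and was the only one of the 11 past the study's thresholds. Creb3l2, a membrane-bound factor cut like ATF6, rose by 0.87. Mbtps2, the protease that makes the last cut in ATF6, fell by 0.52, and Rtcb, the ligase that joins the spliced Xbp1 exons, fell by 0.42. Of 7 known substrates of decay by IRE1, Hgsnat (0.20) and Pmp22 (0.16) rose, Pdgfrb fell by 0.73 and the other 4 were not called.

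The folding enzymes outside the 32 genes were lower more often than higher, with 6 of 26 higher, 16 lower and a median of -0.22. The prolyl isomerases Fkbp11 and Fkbp2 fell by 0.99 and 0.88. The oxidases Ero1b and Qsox1, which make or pass on disulfide bonds, rose by 0.79 and 0.65. Of 25 other genes of ERAD and glycan quality control, 7 rose and 12 fell, with a median of -0.06, so the wider list did not share the direction of the 7 ERAD genes above; the difference between the lists was not tested. Mogs, the glucosidase that first trims N-glycans, had 1985 and 1909 normalised counts untreated and 676.1 and 715.6 with genistein, and fell by 1.49 (SE 0.05, adjusted p = 4.2e-13). The ubiquitin-conjugating enzyme Ube2j2 fell by 0.80, and Edem2, a relative of Edem1, and the ubiquitin ligase Rnf5 rose by 0.59 and 0.56.

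The entry and exit machinery of the ER fell for the most part. Of 28 genes of translocation, signal peptidase and N-glycosylation, 22 fell and 4 rose, with a median of -0.36. Dpagt1, the first enzyme of the N-glycan precursor, fell by 0.83, and Sec61g, the third translocon subunit, fell by 0.77, while Sec61a2, the paralogue of Sec61a1, and Sec62 each rose by 0.25. Of 19 genes of the COPII coat and ER exit, 12 fell and 4 rose, with a median of -0.23. The coat subunit Sec13 and the cargo receptor Surf4 fell by 0.75 and 0.51, and Sec16a and Sec24a, which organise the exit sites and select cargo, rose by 0.49 and 0.44.

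The cytosolic heat shock response, set beside the ER chaperones for comparison, had a lower median: 11 of 15 genes fell and 3 rose, at -0.64. The study's thresholds were passed by 4 of the falls and 1 of the rises. Hspa8, the constitutive cytosolic HSP70, fell by 1.13, and Ahsa1, a cofactor of HSP90, fell by 1.11. Hspa1a and Hspa1b, the inducible HSP70 genes, rose by 1.19 and 1.10, but Hspa1a had only 16.0 and 5.3 normalised counts untreated and 31.9 and 17.2 with genistein, and the pair are near-identical copies whose reads the counting may have split.

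**Figure D5:**
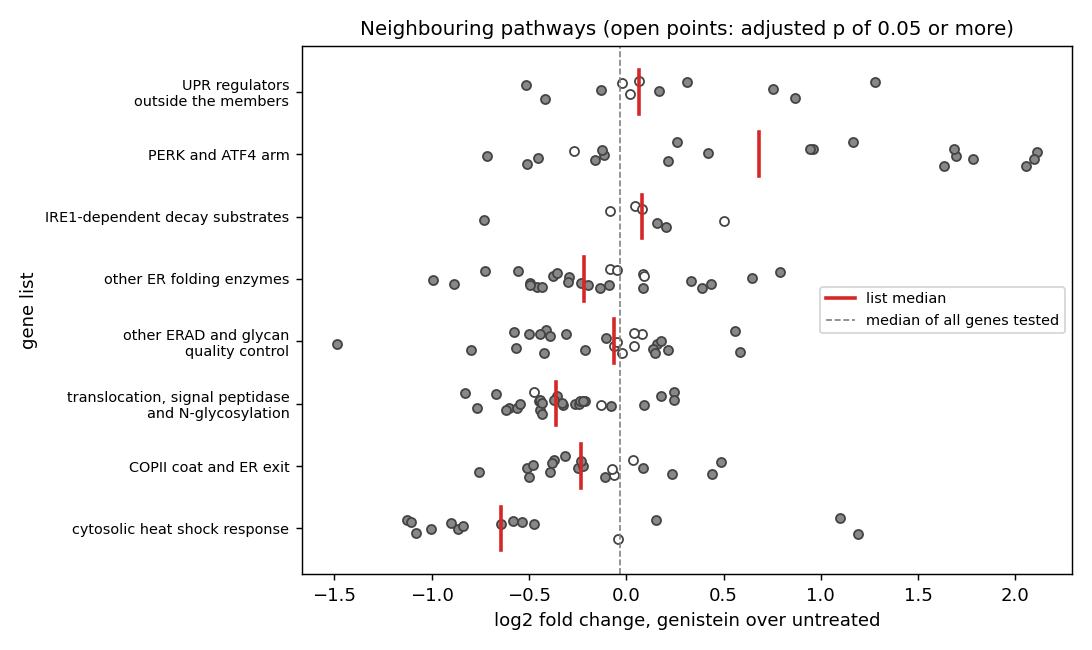
Log2 fold change (genistein over untreated) of each gene of 8 lists of neighbouring pathways; filled points have an adjusted p under 0.05 in edgeR, the red bars are list medians and the dashed line is the median of all genes tested (-0.03). The PERK and ATF4 arm had the highest median (0.68) and the cytosolic heat shock response the lowest (-0.64).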

How the data were processed

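Ribosomal RNA-depleted, stranded total RNA libraries of MEFs (2 untreated, 2 genistein) were sequenced by the authors, who used Trim Galore for trimming, STAR for alignment to mm10 (GRCm38) and TEtranscripts for counting. The values deposited by the authors are raw counts per gene and repeat subfamily; the strand option is not given in the sources used here. Of 49383 entries, 1 named no gene or repeat (0.00208% to 0.00314% of reads) and was left out.

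Genes and repeats were fitted together in edgeR 4.0.16 (R 4.3.3): filterByExpr by group (16240 genes and 1118 repeats kept), TMM scaling, the quasi-likelihood test, and Benjamini-Hochberg adjustment over all kept entries. The study used DESeq2, which was run as an alternative (version 1.42.0). Normalised counts are counts scaled to the mean effective library size; SE is the log2 fold change over the root of F. RPKM used effective library sizes and merged exon lengths from a later GENCODE release than the one the study counted with. Exon lengths and overlaps given here can therefore differ from those of the gene models counted. The code was tested on simulated data. An exact permutation test of 2 against 2 libraries reaches p = 0.333 at best and was not used. Reads carried no molecular identifiers, so PCR copies were counted as reads.

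Within each group the counts varied beyond sampling noise (chi-square over its degrees of freedom 4.35 and 9.20), so each library was treated as 1 replicate. Such variation does not show whether the libraries came from separate cultures. All 32 genes are named. Values in every library are given for the sensors and the 2 largest changes of each other role, and for genes singled out after their values were seen (Hspa5, Dnajb9, Canx, P4hb, Pdia3, Syvn1). In each list of neighbouring genes the 2 highest and 2 lowest called genes are named. The genes and lists were chosen with earlier results of these data known. Promoter windows came from RefSeq (GRCm38.p6) and were matched by symbol. Protein sequences were not analysed here.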

Additional observations from a re-analysis of the deposited data

How the results depend on the processing

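Other scalings, no filter on low counts, DESeq2 and the replicate block gave 9 to 11 genes higher and 17 or 18 lower. Over all genes, these settings gave 4050 (DESeq2) to 6085 (library totals alone) higher and 5309 (DESeq2) to 6521 (no filter) lower. More genes rose than fell with library totals alone (6085 and 5530), scaling from genes alone (5867 and 5815) and genes alone fitted (5888 and 5830). In these settings 0 of the 31 genes passed the study's thresholds, also with no minimum on the mean count. Tested against an absolute log2 fold change of 0.5, 1 gene was higher (Dnajb9) and 5 lower (Hyou1, Manf, Creld2, Pdia6 and Sec61a1). Of all 16240 genes tested, 2383 were higher and 2417 lower in that test. The median log2 fold change of the 31 genes was -0.22 with library totals alone (all genes 0.04). It was -0.24 with scaling from genes alone or with genes alone fitted (all genes 0.01), and -0.31 with no filter (all genes 0.01). Leaving out 1 library gave medians of -0.31 to -0.26 (all genes -0.04 to -0.02). With 1 library left in a group, that library was assumed to vary like the other group. Canx, at -0.01, turned to 0.063 with library totals and 0.036 with scaling from genes alone or genes alone fitted, and ranged from -0.038 to 0.015 leaving out 1 library. Derl2 turned to 0.0088 with library totals. P4hb was not called with no filter (0.09, adjusted p = 0.083). The numbers of the libraries are not stated to pair them. Deviations from the group mean in the first untreated and first genistein libraries had a correlation of -0.03 over all kept genes and repeats. With 2 libraries per group, the second pair mirrors the first and adds nothing. With the replicate block, 9 genes were higher, 18 lower and the median was -0.29. Over all genes tested with the block, 5336 were higher, 6131 lower and the median was -0.03. P4hb lost its call with the block (0.12, edgeR adjusted p = 0.093).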
